A study of Homo sapiens with 12 samples.

Results

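The genes of interleukin-1 (IL-1) signalling described here are IL1A and IL1B, which encode the cytokines IL-1α and IL-1β, IL1RN, which encodes the secreted IL-1 receptor antagonist, IL1R1, which encodes the signalling receptor, IL1R2, which encodes the decoy receptor, and IL1RAP, which encodes the receptor accessory protein. They were taken by gene symbol from the count table and are 6 of its 58735 rows. The table holds RNA-sequencing read counts of THP1 cells, a human leukemia monocytic cell line, in 4 groups with 3 libraries each and between 15439836 and 22092600 counts per library. In mono-culture, THP1 cells were kept for 24 h in complete endothelial medium with no ECs. In the 3 co-cultures they sat for the same 24 h in a transwell insert above human umbilical vein endothelial cells (ECs). The ECs were control ECs, senescent ECs (senECs) made with 10 µM etoposide, a topoisomerase II inhibitor, or EGCG-treated senECs, which also received 100 µM epigallocatechin gallate (EGCG), a green tea catechin. The THP1 cells of all 4 groups, mono-culture included, were then removed from the wells and given 100 ng/ml LPS for 2 h, so no library shows the cells without LPS, and all libraries come from 1 cell line. Nothing in the labels says that libraries of a group came from separate cultures, so p-values cannot be said to measure the spread between cultures. The edgeR p-values and standard errors also draw on the spread of all genes, not on that of 1 gene alone.

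IL-1α and IL-1β bind IL1R1, which then recruits IL1RAP, and the pair signals through MYD88 and IRAK kinases to NF-κB. The antagonist occupies IL1R1 without recruiting IL1RAP, and IL1R2 binds the cytokines but has no signalling domain. In monocytes, LPS induces IL1B through TLR4, and the IL-1β precursor is released after cleavage by caspase-1. IL1RAP is shared with the receptors for IL-33 and the IL-36 cytokines. Gene counts add up all transcripts of a gene, so membrane and soluble forms of IL1RAP, and secreted and intracellular forms of IL1RN, cannot be told apart.

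On GRCh38 (GENCODE release 29), 5 of the genes lie on chromosome 2. IL1R2 runs from 101991844 to 102028544 and IL1R1 from 102064544 to 102179874, both on the plus strand. IL1A runs from 112773915 to 112784590 and IL1B from 112829751 to 112836903, both on the minus strand, with IL1RN from 113107214 to 113134016 on the plus strand. IL1RAP lies on chromosome 3 from 190514051 to 190659750, plus strand.

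The sequences below are the 250 bases before a RefSeq transcription start (GRCh38.p14) of 4 of these genes. IL1A and IL1B are shown because their levels moved together across the libraries. IL1R1 and IL1RAP are shown because they had the clearest differences between co-culture and mono-culture. Capitals mark matches, on either strand, to letters that 5 kinds of regulatory element share. The search for AP-1, the factor family of FOS and JUN, used TGANTCA. For C/EBP, a family that includes the monocyte factor CEBPB, the letters were TTNNGNAAT. For PU.1, the factor encoded by SPI1, the core GAGGAA was searched. The TATA element was searched as TATAAA, and the κB consensus, bound by NF-κB, by its usual letters. No matches overlap in the windows shown.
IL1A, chr2:112784494-112784743, minus strand: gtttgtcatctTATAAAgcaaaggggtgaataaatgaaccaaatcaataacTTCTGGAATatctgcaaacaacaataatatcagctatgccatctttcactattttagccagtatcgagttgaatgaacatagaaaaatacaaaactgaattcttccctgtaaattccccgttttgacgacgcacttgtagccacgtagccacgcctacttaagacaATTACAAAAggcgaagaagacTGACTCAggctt
IL1B, chr2:112836780-112837029, minus strand: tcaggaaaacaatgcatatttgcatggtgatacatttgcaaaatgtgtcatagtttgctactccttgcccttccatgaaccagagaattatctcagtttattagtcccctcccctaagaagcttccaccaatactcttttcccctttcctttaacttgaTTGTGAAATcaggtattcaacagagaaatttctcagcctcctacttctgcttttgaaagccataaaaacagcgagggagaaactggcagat
IL1R1, chr2:102142496-102142745, plus strand: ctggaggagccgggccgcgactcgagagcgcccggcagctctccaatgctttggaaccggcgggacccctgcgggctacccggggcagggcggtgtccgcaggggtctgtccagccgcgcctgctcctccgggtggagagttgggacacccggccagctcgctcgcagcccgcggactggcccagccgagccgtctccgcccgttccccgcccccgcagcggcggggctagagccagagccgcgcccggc
IL1RAP, chr3:190513835-190514084, plus strand: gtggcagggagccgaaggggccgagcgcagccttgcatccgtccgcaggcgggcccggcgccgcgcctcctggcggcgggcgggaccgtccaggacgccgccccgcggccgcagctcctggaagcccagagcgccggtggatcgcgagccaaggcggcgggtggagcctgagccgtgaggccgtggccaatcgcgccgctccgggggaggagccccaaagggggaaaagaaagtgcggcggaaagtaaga

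In the IL1A window, TATA letters stand 239 bases before the start, C/EBP letters 199 and 33 bases before it and AP-1 letters 12 bases before it. The IL1B window holds C/EBP letters 91 bases before the start. Of 35116 promoter windows of this length, 9.85% held the C/EBP letters, 6.57% those of AP-1, 10.7% those of TATA, 23.6% the PU.1 core and 5.21% the κB consensus. The IL1R1 and IL1RAP windows shown hold none of them. The other 3 IL1R1 windows hold a PU.1 core each, and 1 of these holds TATA letters at 2 places as well. The κB consensus was found in no window of the 6 genes, which says only that these letters are not in these 250 bases. The GC content of the windows shown is 37.6% for IL1A, 40% for IL1B and 74.8% for IL1RAP, beside a median of 58% over all windows. The table lists 4 windows for IL1R1, and the one shown was picked for its GC content of 76.8%, while the other 3 have 52.4%, 50% and 39.6%, so no GC content can be given for this gene as such. Of the 2 windows listed for IL1A, the other has 42%.

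The labelled cell type was checked with 14 monocyte markers. Of these, AZU1, SPI1 and CD33 had at least 1162, 226 and 61.9 CPM (read counts scaled to a common library total) in every library. CD68 stayed below 0.86 CPM in every library. The 14 endothelial markers gave no clear endothelial content. CDH5 had at most 1 count in a library and MMRN1 had none, and the markers other than PECAM1 and EGFL7 summed to between 2.97 and 7.07 CPM in every library of all 4 groups. PECAM1 and EGFL7 were also present in mono-culture, where the whole list summed to 157 to 183 CPM, against 155 to 176 with control ECs, 196 to 236 with senECs and 187 to 243 with EGCG-treated senECs. In bulk RNA, fewer cells expressing a gene and less RNA per cell cannot be told apart.

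IL1B was the most abundant of the 6 transcripts in all 12 libraries, and IL1R2 was close to the detection limit. Levels of different genes were compared as FPKM, the CPM divided by the length of the merged exons in kilobases. The mean over the 12 libraries was 121 FPKM for IL1B, 9.24 for IL1A, 5.44 for IL1RAP, 2.75 for IL1RN, 0.697 for IL1R1 and 0.166 for IL1R2. IL1B stood 8.66 to 21 times above IL1A within a library. IL1A and IL1RAP did not keep an order, since IL1A was the higher of the pair in 5 of 12 libraries. IL1RAP exceeded IL1RN in all 12 libraries by 1.17 to 3.28 times, IL1RN exceeded IL1R1 in all 12 by 2.56 to 7.07 times, and IL1R1 exceeded IL1R2 in all 12. The accessory protein transcript was 5.48 to 13.7 times the level of the receptor transcript it pairs with.

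**Figure D1:**
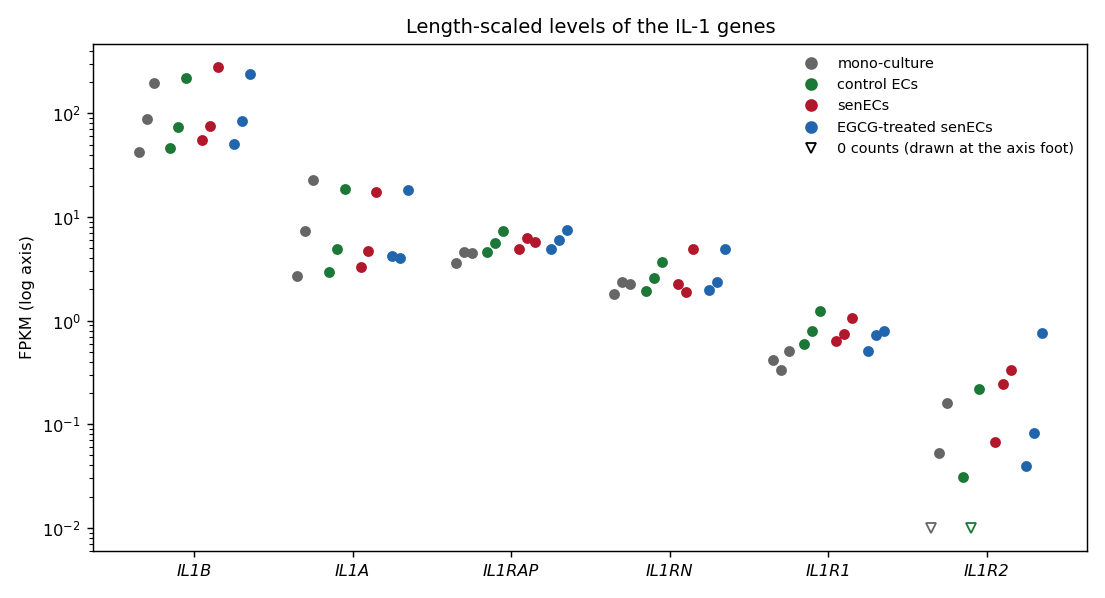
FPKM of the 6 IL-1 genes on a log axis, 1 point per library, coloured by group, with 0 counts drawn as open triangles at the foot. IL1B (42.2 to 280 FPKM) lies above the other genes in every library, while IL1A (2.72 to 22.8) and IL1RAP (3.56 to 7.41) overlap.

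IL1B, the main secreted IL-1 cytokine of monocytes, varied more within each group than between the group means, and no difference between groups was called. Mono-culture gave 131, 270 and 611 CPM in replicates 1, 2 and 3, and co-culture with control ECs gave 142, 231 and 672 CPM. Co-culture with senECs gave 172, 235 and 866 CPM in replicates 1, 2 and 5, and with EGCG-treated senECs 156, 260 and 747 CPM. Every group thus held 1 library above 600 CPM and a pair below 280 CPM, and the ranges of the 4 groups overlap almost wholly. The log2 fold change was 0.28 for senECs against control ECs (standard error 0.62, 95% interval -1.02 to 1.59, edgeR adjusted p = 0.94). It was -0.13 for EGCG-treated senECs against senECs (standard error 0.62, 95% interval -1.43 to 1.18, edgeR adjusted p = 1) and 0.19 for the 3 co-cultures together against mono-culture (standard error 0.52, 95% interval -0.89 to 1.27, edgeR adjusted p = 0.943). In this fit the intervals of both comparisons among the co-cultures include more than a doubling in either direction. The spread of log2 CPM over the libraries alone gave larger standard errors. For senECs against control ECs these were 0.97 for IL1B, 1.08 for IL1A and 0.50 for IL1RN.

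IL1A, whose product acts as an alarm signal from damaged cells as well as a secreted cytokine, followed IL1B at a lower level. Mono-culture gave 5.78, 15.7 and 48.4 CPM, and control ECs 6.24, 10.4 and 39.3 CPM. Co-culture with senECs gave 7.02, 9.89 and 37.0 CPM in replicates 1, 2 and 5, and with EGCG-treated senECs 8.83, 8.51 and 38.5 CPM. Again 1 library of each group, numbered 3 or 5, was 4.36 to 8.37 times replicate 1 of its group. The log2 fold change was -0.05 for senECs against control ECs (standard error 0.72, edgeR adjusted p = 0.991), 0.07 for EGCG-treated senECs against senECs (standard error 0.73, edgeR adjusted p = 1) and -0.35 for the 3 co-cultures against mono-culture (standard error 0.58, edgeR adjusted p = 0.889).

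IL1RN, the secreted antagonist, varied less. It had 5.91, 7.70 and 7.44 CPM in mono-culture and 6.33, 8.35 and 12.1 CPM with control ECs. With senECs it had 7.43, 6.19 and 16 CPM in replicates 1, 2 and 5, and with EGCG-treated senECs 6.46, 7.69 and 15.9 CPM. The highest mono-culture library lay below the library numbered 3 or 5 of each co-culture and below replicate 2 with control ECs. The other co-culture libraries lay within the range of mono-culture. The log2 fold change was 0.15 for senECs against control ECs (standard error 0.33, edgeR adjusted p = 0.942), 0.03 for EGCG-treated senECs against senECs (standard error 0.33, edgeR adjusted p = 1) and 0.45 for the 3 co-cultures against mono-culture (standard error 0.28, 95% interval -0.15 to 1.04, edgeR adjusted p = 0.61).

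**Figure D2:**
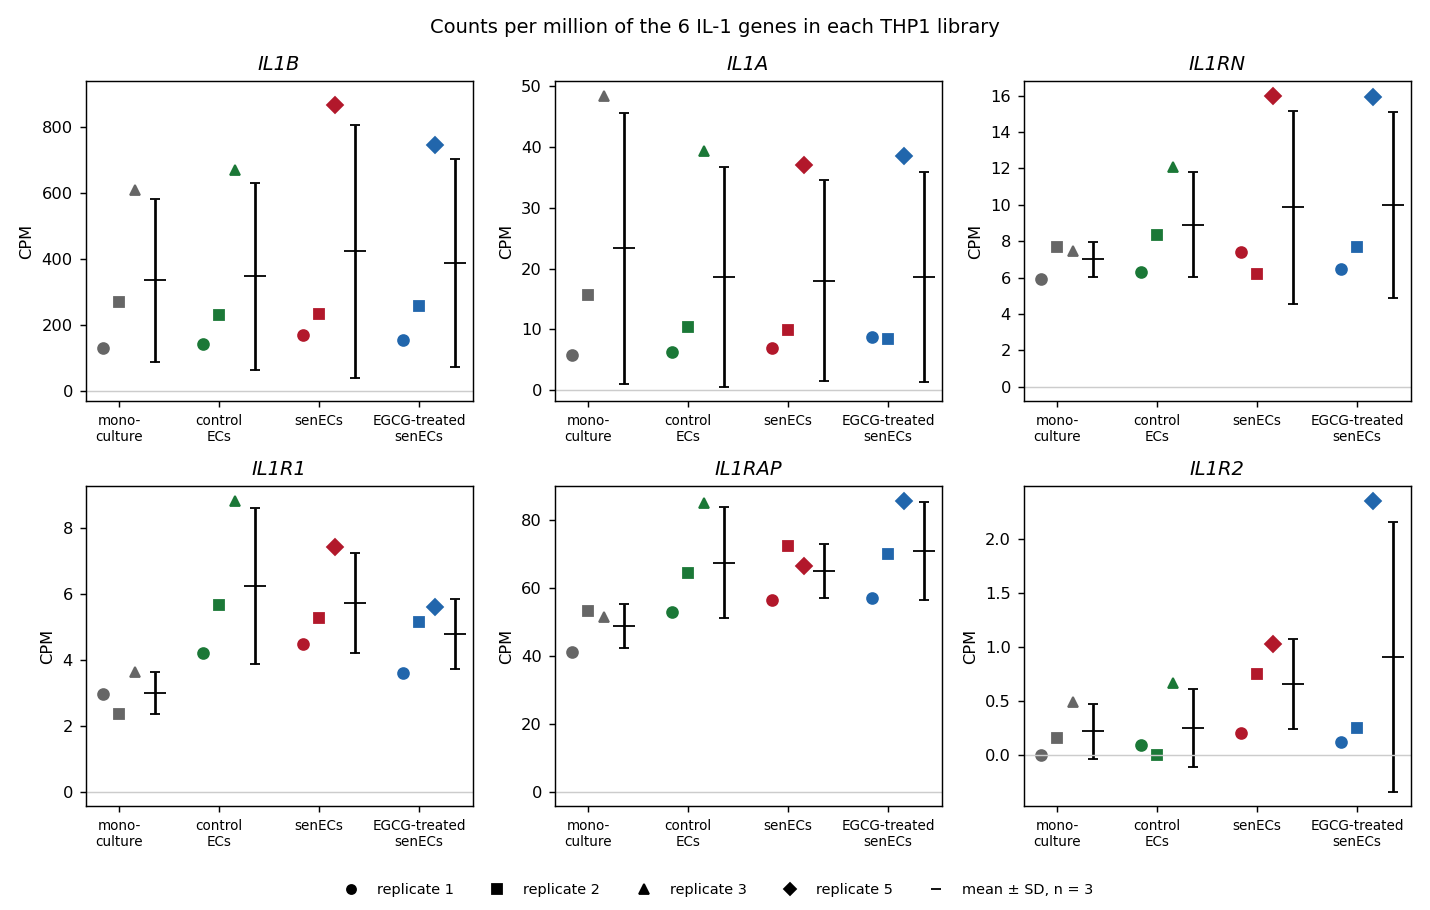
CPM of each IL-1 gene by group, with 1 point per library shaped by its replicate number, and the mean ± SD of the group (n = 3) as a bar to the right. IL1B and IL1A, and also IL1R1, are highest in replicate 3 or 5 of each group. IL1R1 and IL1RAP are mostly lower in mono-culture (2.37 to 3.64 and 41.2 to 53.1 CPM).

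IL1R1 and IL1RAP, the 2 chains of the signalling receptor, had higher means in all 3 co-cultures than in mono-culture, and neither passed the adjusted threshold. IL1R1 had 2.98, 2.37 and 3.64 CPM in mono-culture. It had 4.22, 5.67 and 8.84 CPM with control ECs, 4.49, 5.26 and 7.43 CPM with senECs, and 3.59, 5.15 and 5.62 CPM with EGCG-treated senECs. The mono-culture libraries lay below every library of the other groups except 1, replicate 1 of EGCG-treated senECs, which fell between mono-culture replicates 1 and 3. Behind these levels stand 44 to 159 counts per library.

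Against mono-culture the log2 fold change of IL1R1 was 1.05 with control ECs (standard error 0.28, unadjusted p = 0.00151, edgeR adjusted p = 0.27), which is 2.07-fold. It was 0.93 with senECs (standard error 0.29, edgeR adjusted p = 0.224) and 0.68 with EGCG-treated senECs (standard error 0.29, edgeR adjusted p = 0.541). For the 3 co-cultures together it was 0.89 (standard error 0.24, 95% interval 0.38 to 1.40, edgeR adjusted p = 0.134). DESeq2, which the study's own methods used, gave the same 0.89 (standard error 0.26) with an adjusted p of 0.0267. With every gene that had a count, and no minimum total, edgeR gave an adjusted p of 0.00481 for IL1R1, so the call depends on the tool and on the filter. In that fit the edgeR adjusted p of the monocyte marker CD14 was 1.16e-28 in the same comparison, beside 0.0492 in the main fit. The spread of log2 CPM over the libraries alone gave a larger standard error for IL1R1 with control ECs (0.36). With senECs it gave 0.28 and with EGCG-treated senECs 0.27.

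IL1RAP had 41.2, 53.1 and 51.5 CPM in mono-culture and 52.7, 64.2 and 84.8 CPM with control ECs. It had 56.4, 72.1 and 66.5 CPM with senECs and 57.0, 69.8 and 85.6 CPM with EGCG-treated senECs. The groups with senECs and with EGCG-treated senECs lay wholly above mono-culture, and replicate 1 with control ECs lay just under the highest mono-culture library.

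The log2 fold change of IL1RAP against mono-culture was 0.47 with control ECs (standard error 0.16, edgeR adjusted p = 0.584), 0.42 with senECs (standard error 0.16, edgeR adjusted p = 0.362) and 0.54 with EGCG-treated senECs (standard error 0.16, unadjusted p = 0.00377, edgeR adjusted p = 0.272). For the 3 co-cultures together it was 0.48, or 1.39-fold (standard error 0.14, 95% interval 0.19 to 0.76, edgeR adjusted p = 0.16), and DESeq2 gave 0.48 (standard error 0.15) with an adjusted p of 0.0471. These 4 comparisons share the mono-culture libraries. The spread of log2 CPM over the libraries alone gave larger standard errors for IL1RAP with control ECs (0.23) and EGCG-treated senECs (0.21). With senECs it gave 0.16 as well.

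Of the 14 monocyte markers, edgeR called 2 for the 3 co-cultures against mono-culture, CD14 and FCGR1A, both higher in co-culture. Of all genes, 0.723% were called in this comparison. The median log2 fold change of the monocyte markers was 0.10, and the values reached down to -0.31 for ITGAX (edgeR adjusted p = 0.231). FCGR1A, an IgG Fc receptor, had a log2 fold change of 0.55 (standard error 0.12, edgeR adjusted p = 0.0348). CD14, the LPS co-receptor, had 5.91 to 11.0 CPM in mono-culture and 12.4 to 65.7 CPM in the co-cultures (log2 fold change 1.59, standard error 0.37, edgeR adjusted p = 0.0492). Of the endothelial markers, 10 had enough counts to be tested and 0 were called, with 2 at an unadjusted p under 0.05, ERG and PECAM1. Over all genes, 10.7% had such a p. ERG, at low level, had 0.187 to 0.592 CPM in mono-culture, 0.945 to 1.63 with control ECs, 0.752 to 1.15 with senECs and 0.183 to 1.18 with EGCG-treated senECs. The part of these genes in the IL1R1 and IL1RAP differences was not tested.

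Among the co-cultures no difference of the receptor genes was called. For senECs against control ECs the log2 fold change was -0.12 for IL1R1 (95% interval -0.69 to 0.45, edgeR adjusted p = 0.941) and -0.05 for IL1RAP (95% interval -0.39 to 0.29, edgeR adjusted p = 0.962). For EGCG-treated senECs against senECs it was -0.25 for IL1R1 (95% interval -0.83 to 0.33, edgeR adjusted p = 1) and 0.13 for IL1RAP (95% interval -0.22 to 0.47, edgeR adjusted p = 1). The intervals of IL1RAP are the narrowest among the 5 genes fitted here, and those of IL1A the widest.

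IL1R2, the decoy receptor, was too low to compare. Mono-culture had 0, 3 and 9 counts, control ECs 2, 0 and 12 counts, senECs 4, 13 and 17 counts in replicates 1, 2 and 5, and EGCG-treated senECs 2, 4 and 44 counts. A count of 0 allows up to 3 counts, or 0.132 to 0.191 CPM depending on the library. The 44 counts of 1 EGCG-treated library stand apart from the rest of that group, and no fold change is given for this gene. These limits cover counting error only.

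**Figure D3:**
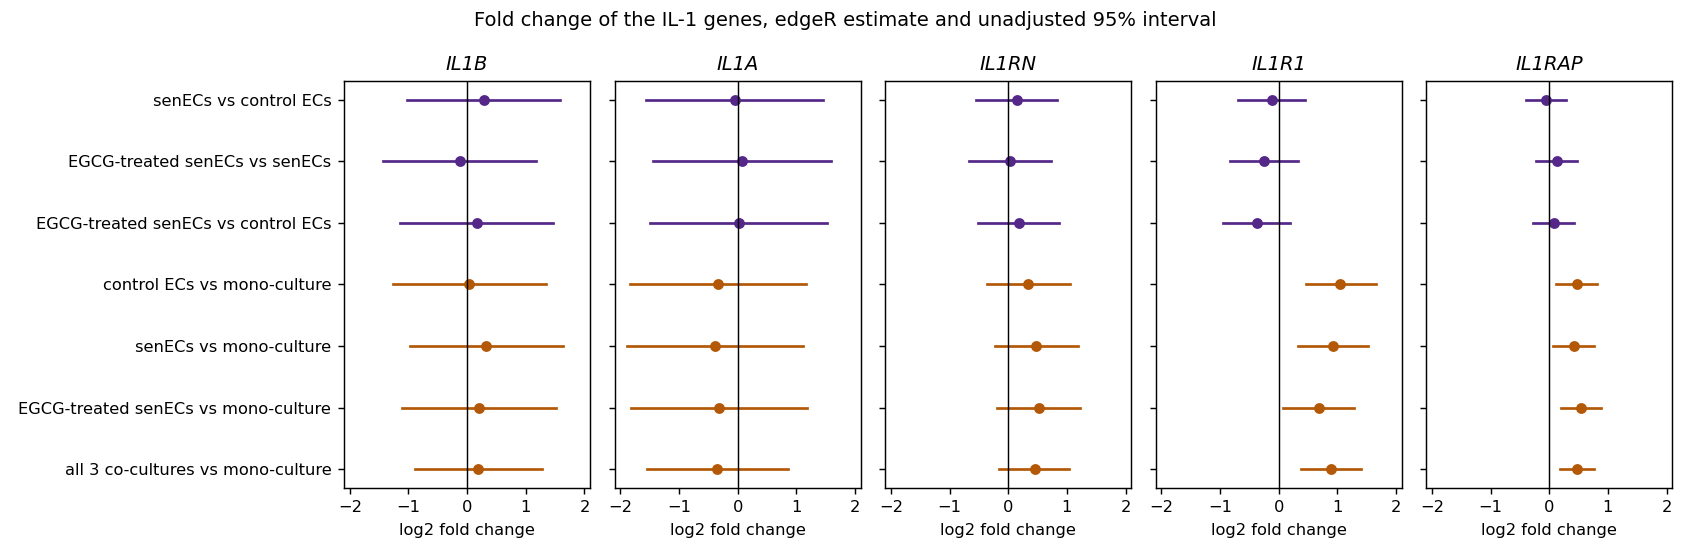
edgeR log2 fold change (point) and unadjusted 95% interval (line) of 5 IL-1 genes in the 7 comparisons, purple among the co-cultures and orange against mono-culture. The intervals of IL1B, IL1A and IL1RN cross 0 in every comparison, and those of IL1R1 and IL1RAP lie above 0 in the 4 comparisons with mono-culture, although none passed after adjustment over all genes.

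In counts, edgeR called 0 of the 6 genes in each of the 7 comparisons. Among the co-cultures (senECs against control ECs, EGCG-treated senECs against senECs, EGCG-treated senECs against control ECs) 0% of all 25873 genes tested were called in each, and 0 of the 6 genes had an unadjusted p under 0.05. DESeq2 called 0 of the 6 genes in these as well. With every gene that had a count, edgeR also called 0 of the 6, but for senECs against control ECs IL1B had an unadjusted p of 0.0115 (adjusted p = 0.5) and IL1R2 one of 0.0474. The standard error of IL1B was 0.11 in that fit, beside 0.97 from the spread of its log2 CPM over these 6 libraries. Against mono-culture the share of all genes called was 0.143% with control ECs, 0.309% with senECs, 0.213% with EGCG-treated senECs and 0.723% for the 3 co-cultures together.

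At an unadjusted p under 0.05 and a higher level in co-culture, 2 of the 6 genes (IL1R1 and IL1RAP) stood in each of these 4 comparisons, where 3.17%, 5.76%, 4.05% and 4.88% of all genes did. DESeq2 called 2 of the 6 for the 3 co-cultures together, where it called 1.69% of all genes, and 0 in the 3 single comparisons. Libraries did not overlap and were all higher for IL1R1 with control ECs (6.25% of all genes), for IL1R1 and IL1RAP with senECs (8.18%) and for IL1RAP with EGCG-treated senECs (6.4%). For the 3 co-cultures together 0 of the 6 were all higher (1.77% of all genes). The median log2 fold change of the 6 genes was 0.46 in that last comparison, beside -0.02 over all genes.

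The widest variation of the cytokine genes lay between libraries of the same group. The highest library exceeded the lowest by 4.67 to 5.04 times for IL1B and by 4.52 to 8.37 times for IL1A. Only 15 of 14397 genes with a mean of at least 1 CPM had a range of at least 4-fold in each of the 4 groups, and IL1A and IL1B are among them. On the log2(CPM + 2) scale, the group accounted for 1.07% of the sum of squares of IL1B and 1.02% of that of IL1A, for 11.1% with IL1RN, 56.8% with IL1R1 and 47.9% with IL1RAP, beside a median of 28.8% over these genes.

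The high libraries of IL1A and IL1B were replicate 3 of mono-culture and of control ECs and replicate 5 of senECs and of EGCG-treated senECs. Other genes that LPS induces were high in the same libraries. Of 12 such genes, 11 were highest there in all 4 groups, and so were 6.7% of all 14397 genes. PTGS2, the inducible cyclooxygenase, was 3.46 to 5.87 times its level in replicate 1 of the group, CCL3 3.22 to 4.11 times and CXCL8 2.19 to 3.37 times, beside 4.67 to 5.04 times for IL1B. IL1R1 was highest in these libraries in all 4 groups as well, at 1.22 to 2.09 times replicate 1. IL1RN was highest there in 3 of the 4 groups and IL1RAP in 2. The LPS response list summed to 1988 to 3395 CPM in mono-culture and to 2179 to 4253 CPM in the co-cultures.

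Without these 4 libraries (8 libraries left, a choice made after the data were seen), chosen for their high IL1A and IL1B, the spread of these genes is smaller by construction. The log2 fold change of IL1B was then 0.11 for senECs against control ECs (95% interval -0.49 to 0.71, edgeR adjusted p = 0.998) and 0.04 for EGCG-treated senECs against senECs (95% interval -0.57 to 0.64, edgeR adjusted p = 1). For the 3 co-cultures against mono-culture, IL1A was -0.35 (edgeR adjusted p = 0.785) and IL1B -0.01 (edgeR adjusted p = 1). IL1R1 and IL1RAP for the 3 co-cultures against mono-culture were 0.82 (edgeR adjusted p = 0.286) and 0.39 (edgeR adjusted p = 0.408). No IL-1 gene was called in any of the 7 comparisons of these 8 libraries by edgeR.

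**Figure D4:**
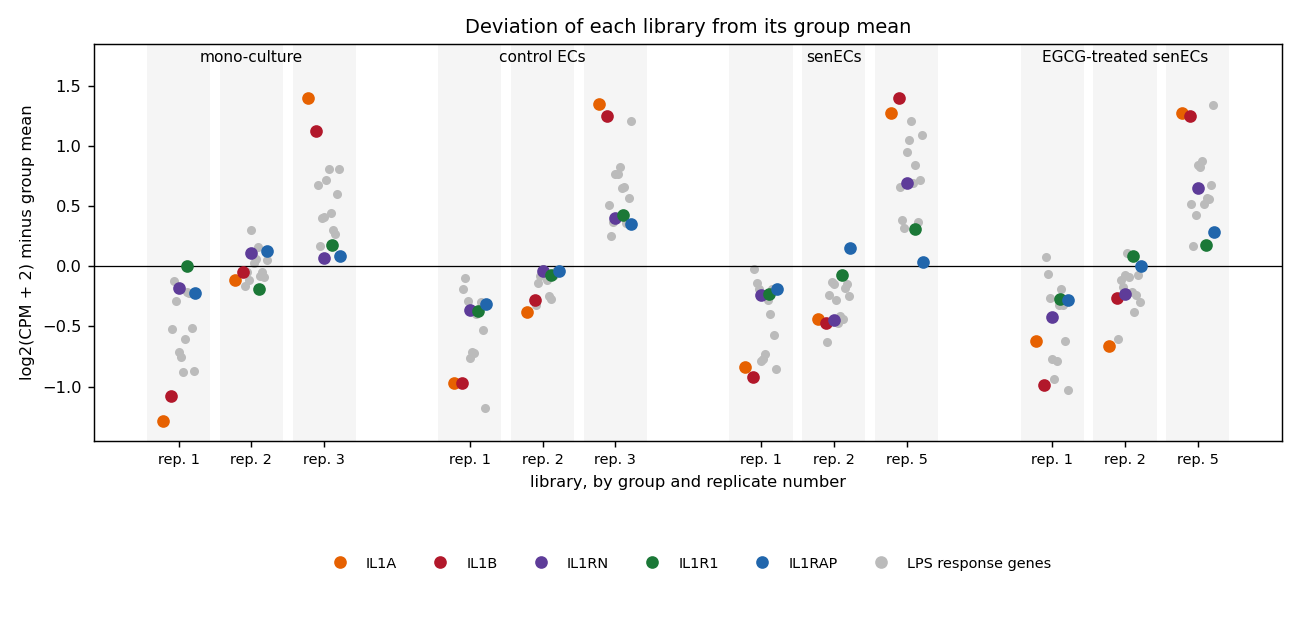
Deviation of each library from its group mean in log2(CPM + 2), 1 column per library, for 5 IL-1 genes (coloured) and the LPS response genes with a mean of at least 1 CPM (grey). IL1A and IL1B lie 1.13 to 1.40 above the group mean in replicate 3 or 5 of every group, together with most LPS response genes. IL1R1 and IL1RAP stay within 0.43 of it, and IL1R1 is also highest in those libraries. Adding 2 CPM narrows the deviations of low genes such as IL1R1.

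The antagonist was set against the cytokine within each library. The level of IL1RN as a share of IL1B, in CPM, was 4.52%, 2.85% and 1.22% in mono-culture and 4.44%, 3.62% and 1.80% with control ECs. It was 4.33%, 2.63% and 1.84% with senECs (replicates 1, 2 and 5) and 4.14%, 2.95% and 2.12% with EGCG-treated senECs. The share was lowest in the library with the most IL1B in every group, and the spread within a group was wider than any difference between group means. Because IL1B is the denominator and varied more than IL1RN within each group, a low share where IL1B is high follows from arithmetic. The log2 ratio differed by -0.15 between senECs and control ECs (exact two-sided permutation p = 0.9, adjusted p = 1) and by 0.10 between EGCG-treated senECs and senECs (exact permutation p = 0.8, adjusted p = 1). With 3 libraries against 3 this test cannot go below 0.1.

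IL1A as a share of IL1B was 4.42%, 5.80% and 7.92% in mono-culture and 4.38%, 4.51% and 5.85% with control ECs. It was 4.09%, 4.21% and 4.27% with senECs and 5.66%, 3.27% and 5.16% with EGCG-treated senECs. The 3 senECs libraries lay close together (SD 0.03 on the log2 scale) and below all libraries of mono-culture and of control ECs. The closest values were 4.27% with senECs and 4.38% with control ECs, and an EGCG-treated senECs library was lower still (3.27%). How often other gene ratios separate in this way was not tested. The log2 ratio of the senECs libraries was lower than that of control ECs by 0.22 (log2 difference -0.22, exact permutation p = 0.1, adjusted p = 0.3). It differed from mono-culture by -0.49 (exact permutation p = 0.1, adjusted p = 0.3). A p of 0.1 is the smallest this design allows, and any full separation of 3 libraries from 3 gives it. EGCG-treated senECs differed from senECs by 0.13 (exact permutation p = 0.7, adjusted p = 0.8). The p-values of each ratio were adjusted over 6 pairs of groups.

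**Figure D5:**
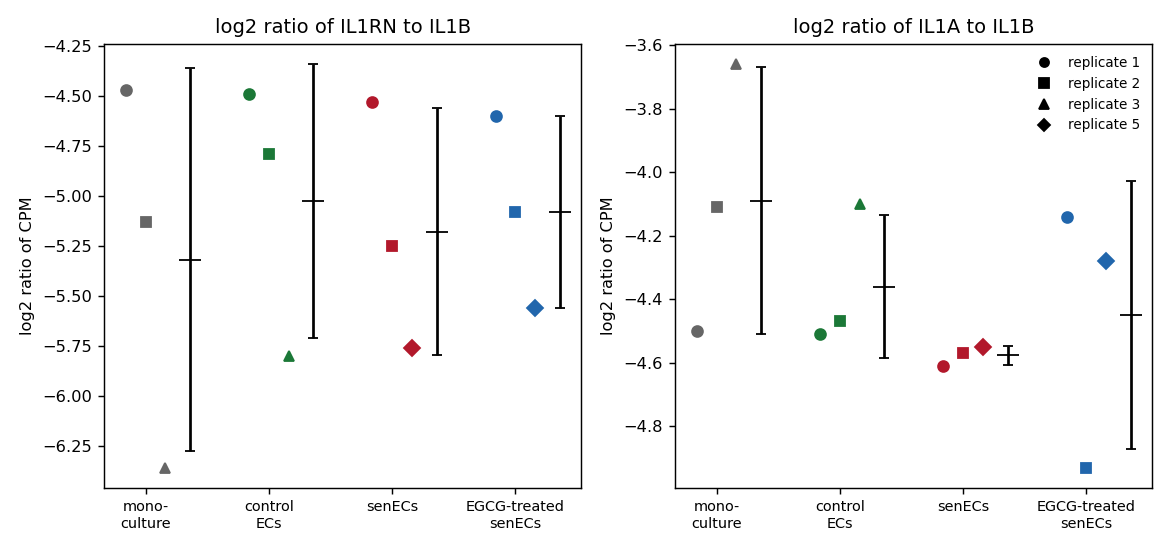
log2 ratio of the CPM of IL1RN (left) and IL1A (right) to that of IL1B, 1 point per library shaped by replicate number, with the group mean ± SD (n = 3) beside the points. The IL1RN ratio is lowest in replicate 3 or 5 of every group, where its denominator IL1B is highest. The IL1A ratio of the senECs libraries spans only -4.61 to -4.55.

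The genes most like each IL-1 gene across the 12 libraries were taken by Pearson's r of log2(CPM + 2) among 14397 genes, as a description, since all points share the libraries and their replicate numbers. For IL1B these were TRAF1 (r = 0.993), an adaptor of TNF receptor signalling, CD83 (0.991), an activation marker, and the chemokine CCL4L2 (0.985), which has near-identical copies whose reads may be shared. For IL1A they were IRAK2 (0.978), a kinase of IL-1 and Toll-like receptor signalling, the protease inhibitor SERPINB9 (0.975) and the survival gene MCL1 (0.965). IL1A and IL1B themselves had r = 0.964.

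The antagonist and receptor genes had other neighbours. IL1RN was most like MMP9 (0.956), a gelatinase, PRIM2 (0.942), a primase subunit, and NAMPT (0.933), an enzyme of NAD synthesis, although by Spearman's rho these were 0.741, 0.615 and 0.748. IL1R1 was most like the transporter SLC22A4 (0.958), NETO2 (0.948) and the adhesion receptor ADGRE2 (0.934). IL1RAP was most like the transcription factor ETS1 (0.947), ASPH (0.94) and ANKRD33B (0.934). Between them IL1R1 and IL1RAP had r = 0.8, and IL1R1 and IL1B had r = 0.592. With group means removed, r was 0.856 for IL1B with IL1R1, 0.8 for IL1B with IL1RAP and 0.74 for IL1R1 with IL1RAP.

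The rest of the pathway was followed with a list of 53 genes, of which 45 had enough counts to be tested. edgeR called 0 of the 45 in each of the 7 comparisons. At an unadjusted p under 0.05 there were 4 for senECs against control ECs, 1 for EGCG-treated senECs against senECs and 10 for the 3 co-cultures against mono-culture, of which 4 were higher and 6 lower in co-culture. Over all genes tested, 6.61%, 2.22% and 10.7% had such a p in these 3 comparisons. The median log2 fold change of the list in these 3 comparisons was 0.10, -0.02 and -0.02, beside -0.01, 0 and -0.02 over all genes tested. DESeq2 called 0, 0 and 3 of the 45, beside 0%, 0% and 1.69% of all genes. In the other comparisons there were 1 (EGCG-treated senECs against control ECs), 4 (control ECs against mono-culture), 7 (senECs against mono-culture) and 6 (EGCG-treated senECs against mono-culture) at an unadjusted p under 0.05, beside 4.55%, 6.52%, 11% and 8.58% of all genes. DESeq2 called 0, 0, 2 and 1 of the list in these comparisons, beside 0%, 0.464%, 1.34% and 0.889% of all genes.

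Of the other IL-1 family ligands and receptors, 9 of 16 had a total of at least 10 counts. IL18 had 6.56 to 16.1 CPM, its inhibitor IL18BP 5.22 to 10.6 CPM and the inhibitory receptor SIGIRR 12.5 to 19.5 CPM over the 12 libraries. IL33 stayed at or below 0.174 CPM, and IL36RN, IL1F10 and IL1RAPL1 had no count. IL18RAP, the IL-18 receptor accessory chain, had 1.12, 1.78 and 1.54 CPM in mono-culture, 1.87, 2.81 and 5.78 CPM with control ECs, 2.58, 2.89 and 3.81 CPM with senECs and 2.74, 2.73 and 3.54 CPM with EGCG-treated senECs. All co-culture libraries lay above all mono-culture libraries, as did 1.77% of all genes, and the closest values were 1.78 and 1.87 CPM. The log2 fold change was 1.09 (standard error 0.31, edgeR adjusted p = 0.145, DESeq2 adjusted p = 0.0334). IL18RAP and the genes in the next paragraphs with fold changes were chosen after their values were seen.

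Of the genes that process and release IL-1β, 15 of 16 had enough counts to be tested, and CARD18 had no count. NLRP3, the inflammasome sensor, had 116 to 134 CPM, CASP1, which cleaves the IL-1β precursor, 45.2 to 76.2 CPM, and PYCARD, the adaptor between them, 35.0 to 58.3 CPM. NLRP3 thus varied little between libraries in which IL1B varied several-fold. GSDMD, whose cleaved product forms the pores through which IL-1β leaves, had 92.2, 93.5 and 97.3 CPM with control ECs, 110, 128 and 156 CPM with senECs and 128, 124 and 142 CPM with EGCG-treated senECs, beside 87.6, 105 and 113 CPM in mono-culture. The senECs libraries lay wholly above those of control ECs, as did 5.31% of all genes (log2 fold change 0.48, standard error 0.12, unadjusted p = 0.000919, edgeR adjusted p = 0.728, DESeq2 adjusted p = 0.896).

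All 21 genes of the signalling group were tested. MYD88, the receptor adaptor, had 46.6, 43.4 and 55.6 CPM in mono-culture and 54.4 to 67.9 CPM in the co-cultures. IRAK1, the kinase it recruits, had 431, 378 and 400 CPM in mono-culture and 430 to 544 CPM in the co-cultures. Both overlapped mono-culture in at least 1 library. For the 3 co-cultures together the log2 fold change was 0.33 for MYD88 (standard error 0.09, edgeR adjusted p = 0.133, DESeq2 adjusted p = 0.0228) and 0.29 for IRAK1 (standard error 0.08, edgeR adjusted p = 0.134, DESeq2 adjusted p = 0.00779). IRAK3, an inhibitory member of the family, had 326 to 449 CPM over the 12 libraries. TRAF6, the ubiquitin ligase downstream of the IRAKs, had 17.3 to 23.7 CPM.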

How the data were processed

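RNA was sequenced from THP1 cells in 12 libraries. The table the authors deposited gives, for each gene symbol, the raw counts of reads mapped with HISAT2 to hg38 after adapter and quality cleaning (submitters' processing notes). The counting tool is not given in the sources used here. A further 4 columns matched no described sample and were not used. Groups came from the labels. Genes entered the test at 10 or more counts in all (25873 genes), in edgeR 4.0.16 (quasi-likelihood, TMM, R 4.3.3), with 12 libraries in 1 model and the group as its only term. Calls took a Benjamini-Hochberg adjusted p under 0.05 over all genes. CPM used TMM library sizes. FPKM divided CPM by merged GENCODE exon lengths. Standard errors are the fold change over the square root of edgeR's F. DESeq2 1.42.0, other filters and size factors, a replicate block and leaving out libraries were alternatives. On simulated counts of 25067 genes for senECs against control ECs, edgeR recovered 163 of 200 genes changed 2-fold, with 5 false calls. The simulated spread followed expression level alone, with no difference between replicate numbers. It therefore does not say how often a 2-fold change of IL1A or IL1B would be found. The 6 genes and the lists were chosen with earlier results of these data known. The rule for naming took the 6 genes, called genes of the pathway list (none were called) and the 3 genes most like each of the 6 with a mean of at least 1 CPM. Others are named as chosen later. Ratios were compared by exact two-sided permutation (scipy 1.17.1).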

Additional observations from a re-analysis of the deposited data

How the results depend on the processing

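No IL-1 gene and no gene of the pathway list was called by edgeR in any comparison, and the same held with DESeq2 size factors, with at least 10 counts in every library, with edgeR's own filter, with only the groups compared, without any 1 library and in the 8 libraries numbered 1 and 2. With fewer libraries a call is generally harder to reach, so the absence of calls in those fits adds little. The 8 libraries were also chosen by leaving out those with high IL1A and IL1B. The other alternatives called members only against mono-culture, and all of these were IL1R1 or IL1RAP. DESeq2 called 2 members for the 3 co-cultures. With every gene that had a count, edgeR called 2 with control ECs, 2 with senECs, 1 (IL1RAP) with EGCG-treated senECs and 2 for the 3 co-cultures. Of all genes, that setting called 0.641%, 1.69%, 1.08% and 1.67% in these comparisons. Its standard error of IL1B was far below that from the spread over the libraries, as given above. Of the pathway list, DESeq2 called 2 with senECs, 1 with EGCG-treated senECs and 3 for the 3 co-cultures. Of all genes it called 1.34%, 0.889% and 1.69% there. With every gene that had a count, edgeR called 1 (GSDMD) for senECs and 1 (GSDMD) for EGCG-treated senECs, each set against control ECs, and 1 each with control ECs, with senECs and for the 3 co-cultures against mono-culture. Over all genes, the 3 co-cultures gave 187 calls with edgeR, 436 with DESeq2 and 582 with every gene that had a count, and senECs against control ECs gave 0, 0 and 114. EGCG-treated senECs gave 0, 0 and 14 against senECs and 0, 0 and 43 against control ECs. The cause of these differences was not tested.

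Replicate numbers do not mark a shared culture or day in the labels. Deviations of same-numbered libraries from their group means correlated at 0.03 to 0.58 over 14 pairs (median 0.38). Every same-numbered pair under 0.1 was of libraries numbered 2. Libraries numbered 3 and 5 correlated at 0.37 to 0.53, and the other pairs with different numbers at -0.56 to 0.22 (median -0.19). Same-numbered libraries thus mostly deviated together, those numbered 2 less clearly than the others. The main model has no term for the number, because the labels do not describe it. A replicate block called 2 members with control ECs, 2 with senECs, 1 with EGCG-treated senECs and 2 for the 3 co-cultures, and gave the same counts with numbers 3 and 5 joined. Of all genes tested it called 1.81%, 2.74%, 1.64% and 3.18% in these comparisons, and 1.55%, 5.44%, 3.02% and 4.8% with 3 and 5 joined. Among the co-cultures it called 153 of all genes (268 with 3 and 5 joined) for senECs against control ECs, and with EGCG-treated senECs 13 (1) against senECs and 34 (60) against control ECs. For senECs against control ECs, IL1B was at a log2 fold change of 0.16 (edgeR adjusted p = 0.707) and, with 3 and 5 joined, 0.23 (unadjusted p = 0.0114, edgeR adjusted p = 0.229). With 3 and 5 joined, the number accounted for 97.6% of the sum of squares of IL1B and 95.5% of that of IL1A in log2(CPM + 2), beside a median of 25.4% over all genes. The number accounted for 65.6% with IL1RN, 41.7% with IL1RAP and 33% with IL1R1. Of the pathway list, the replicate block called 1 for senECs and 1 for EGCG-treated senECs, each set against control ECs. Against mono-culture it called 2 with control ECs, 3 with senECs, 1 with EGCG-treated senECs and 3 for the 3 co-cultures; with 3 and 5 joined these were 2, 5, 4 and 3. Under the block, the fold change for senECs against control ECs was 0.04 for IL1A, -0.18 for IL1RN and 0.00 for IL1RAP, and the log2 ratio of IL1RN to IL1B against mono-culture was -0.09 with senECs and -0.04 with EGCG-treated senECs.

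Leaving out 1 library turned the sign of several uncalled differences, given here as the range of log2 fold changes. For senECs against control ECs these were -1.13 to 1.10 (IL1A), -0.78 to 1.18 (IL1B), -0.38 to 0.42 (IL1RN), -0.35 to 0.21 (IL1R1) and -0.20 to 0.15 (IL1RAP). For EGCG-treated senECs against senECs they were -1.04 to 1.15 (IL1A), -1.03 to 0.93 (IL1B), -0.47 to 0.56 (IL1RN) and -0.03 to 0.26 (IL1RAP), and for IL1RAP in EGCG-treated senECs against control ECs -0.08 to 0.28. For the 3 co-cultures against mono-culture they were -0.80 to 0.76 (IL1A) and -0.19 to 0.94 (IL1B), while IL1R1 stayed at 0.74 to 1.05 and IL1RAP at 0.37 to 0.54. The log2 ratio of IL1RN to IL1B ranged from -0.54 to 0.14 (senECs against control ECs), -0.19 to 0.43 (EGCG-treated senECs against senECs) and -0.44 to 0.22 (EGCG-treated senECs against control ECs). Against mono-culture it ranged from -0.23 to 0.72 (control ECs), -0.38 to 0.57 (senECs) and -0.28 to 0.67 (EGCG-treated senECs). That of IL1A to IL1B ranged from -0.03 to 0.37 (EGCG-treated senECs against senECs) and -0.25 to 0.15 (EGCG-treated senECs against control ECs), and stayed at -0.29 to -0.09 for senECs against control ECs. In the 8 libraries, signs also turned for senECs against control ECs (IL1A 0.00, IL1RN -0.12, IL1RAP 0.12), for EGCG-treated senECs against senECs (IL1B 0.04, IL1RAP -0.01) and for IL1B in the 3 co-cultures against mono-culture (-0.01).

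The limits are 3 libraries per group, 1 cell line, no library without LPS, and IL1R2 and several pathway genes near 0 counts.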
